A study of Homo sapiens with 4 samples.

Results

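Human chromosome 19 carries the densest collection of C2H2 zinc finger genes in the genome, and the genes described here are the protein-coding ones among them whose GENCODE release 44 symbol is ZNF followed by a number and at most 1 capital letter. The rule used no measured value and found 246 genes among the 61906 genes of the expression table, of which 159 reached a mean of 1 TPM (a unit of transcript abundance corrected for gene length and library size) over the 4 libraries and were tested. The libraries came from HepG2 cells, a human hepatocellular carcinoma line labelled wild type. In 2 libraries the cells had been treated with 20 µM pyridostatin (PDS) for 24 h, and in 2 they had been mock-treated, which the study's methods give as sterilized water for its chromatin assays. PDS is a small molecule that binds G-quadruplexes, structures that stacked guanines form in DNA and RNA. Poly(A) RNA was sequenced. The labels do not say whether replicate libraries were grown apart, and the p-values cover the variation between these 4 libraries only.

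A C2H2 zinc finger is a short fold in which a pair of cysteines and a pair of histidines hold a zinc ion, and a row of such fingers reads a stretch of DNA. Most of the chromosome 19 genes arose by local duplication during primate and earlier mammalian evolution and lie in clusters of relatives. The majority encode a KRAB domain before the fingers, which recruits the corepressor TRIM28 and, through it, the histone methyltransferase SETDB1 and HP1 proteins, and many of the proteins silence transposable elements.

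The 6 hepatocyte markers (ALB, AFP, TTR, APOA1, SERPINA1 and HNF4A) all averaged at least 85.3 TPM, while the fibroblast and erythroid markers stayed at or below 0.23 TPM. Of the leukocyte markers 1 of 4 and of the endothelial markers 2 of 3 averaged over 1 TPM, with 3.04 TPM as the highest. Reads recovered from the TPM steps numbered 15573166 and 19647907 in the PDS libraries, against 39217670 and 30408397 in the mock libraries. Transcripts of the mitochondrial genome took 36.5% and 36.4% of TPM in the PDS libraries and 15.3% and 14.5% in the mock libraries. On the deposited scale the median gene was shifted by -0.55 (log2, PDS over mock). Levels are therefore given as scaled TPM, the deposited TPM divided by a median-of-ratios factor for each library, and a gene called higher or lower is so relative to the median gene.

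Few of the tested chromosome 19 ZNF genes passed the threshold between PDS and mock cells. Of the 159 tested members, 4 were higher and 3 were lower in PDS cells at an adjusted p under 0.05 (limma on log2(scaled TPM + 1), Benjamini-Hochberg over 14686 genes), which is 4.40% of the tested members. Among all tested genes 29.2% passed, 16.2% higher and 13.0% lower. The median log2 fold change of the members was -0.07, with quartiles of -0.18 and 0.07, beside -9.2e-05 over all tested genes, and 106 of the 159 members lay below zero. On TPM as deposited this lean was not seen, with a member median 0.012 above that of all tested genes and 77 of the 159 (48.4%) below it. The members with no overlap between the PDS and mock libraries were 28 on the higher side and 68 on the lower side, or 60.4% of those tested. Over all tested genes this share was 70.8%, 35.2% on the higher and 35.6% on the lower side.

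The same values in 2 neighbouring sets of genes frame these counts. Of the 262 ZNF genes of the same name pattern on other chromosomes, 191 were tested. In PDS cells 9 of these were higher and 25 lower (17.8% in all), and they had a median of -0.09 on the log2 scale. The other 1228 protein-coding genes of chromosome 19 went the other way in their median, at 0.10 over 690 tested. Of these 177 were higher and 58 lower (34.1% in all). The share of all tested genes was 29.2%, 16.2% higher and 13.0% lower. The sets also differed in level. Tested members averaged 2.93 TPM in the median, the other ZNF genes 5.64 TPM and the other chromosome 19 genes 22.4 TPM. Their median canonical transcripts were 4004, 3960 and 2231.5 bases long, in the same order. The differences between these sets, and the part of level and length in them, were not tested.

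**Figure D1:**
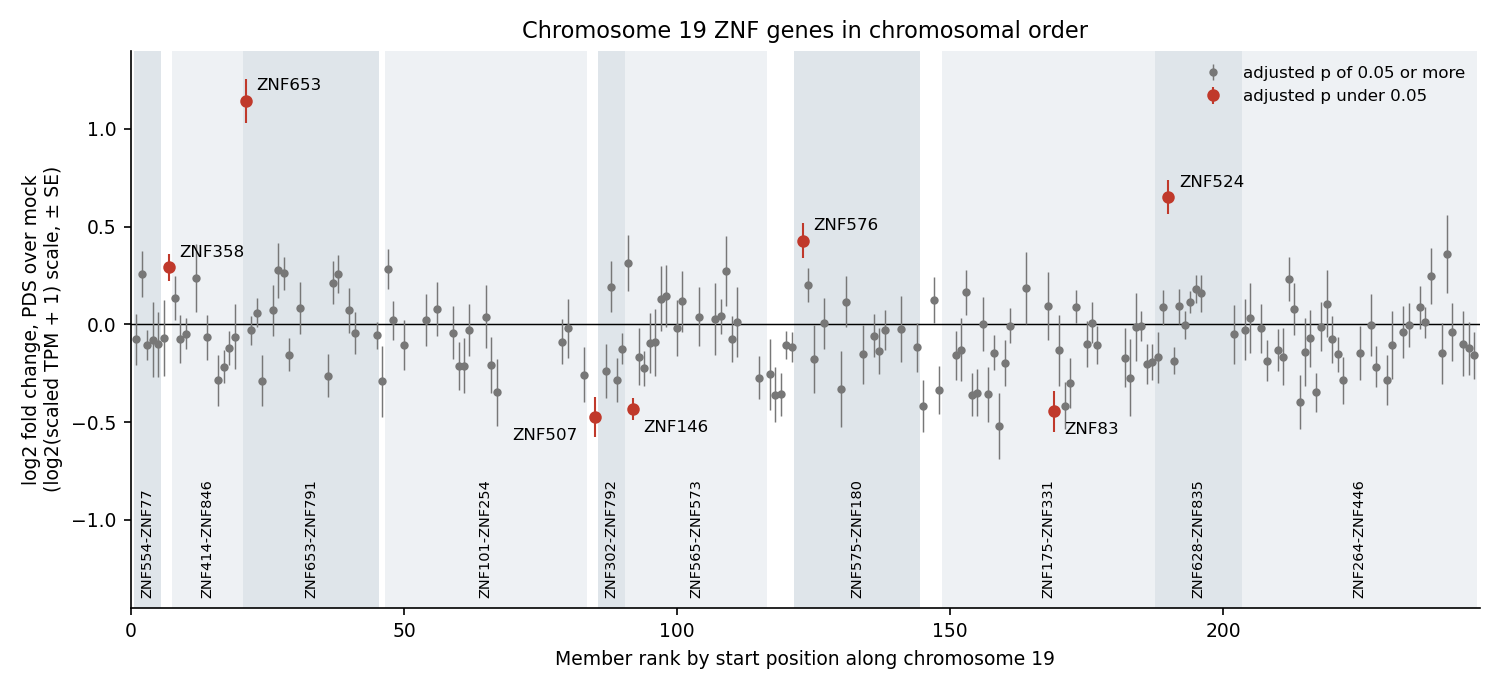
Fold change (log2, PDS over mock, ± SE) of the 159 tested members against their rank by start position, with the 10 clusters shaded and the 7 members past the threshold in red. Most points lie between -0.5 and 0.5, and ZNF653 at 1.14 and ZNF524 at 0.65 stand above the rest.

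The members were scarce transcripts, and fewer of them passed than of all genes in each class of level. Tested members averaged 2.93 TPM in the median, beside 10.1 TPM for all tested genes. Between 1 and 2 TPM 0 of 45 members passed, beside 6.96% of all genes in that range, with 28 of the 45 below zero. Between 2 and 5 TPM 1 of 68 members passed (1.47%) beside 16.5% of all genes, between 5 and 10 TPM 3 of 28 (10.7%) beside 27.8%, and between 10 and 50 TPM 3 of 16 (18.8%) beside 38.0%. The median standard error of the log2 fold change was 0.168 for members and 0.191 for all genes between 1 and 2 TPM. It was 0.122 and 0.131 between 2 and 5 TPM, 0.095 and 0.091 between 5 and 10, and 0.083 and 0.072 between 10 and 50. The fit draws each variance toward the value expected at its level, so similar errors within a class are partly built in. The part of precision in the lower shares was not tested. The 95% confidence interval of the log2 fold change lay wholly between -1 and 1 for 158 of the 159 members, and between -0.5 and 0.5 for 91. These intervals are on the log2(scaled TPM + 1) scale, which understates the changes of scarce transcripts, so they do not exclude larger changes in TPM. The lowest estimate, -0.52 for ZNF836, was -0.99 ± 0.28 (SE) in a fit to the recovered reads (limma voom).

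**Figure D2:**
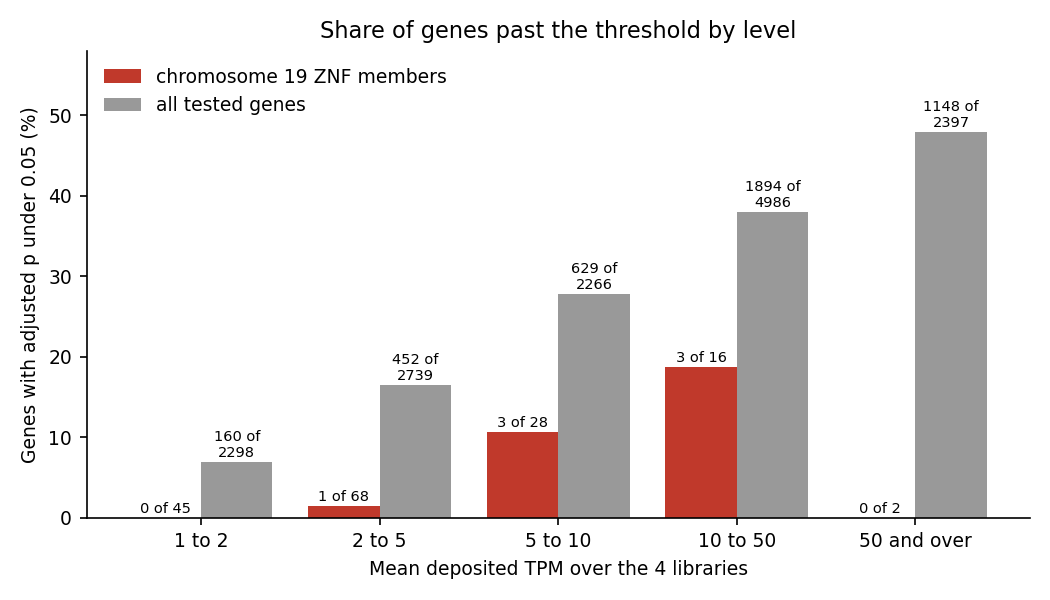
Percentage of genes with an adjusted p under 0.05 (y axis) in 5 classes of mean deposited TPM (x axis), for the members (red) and all tested genes (grey), with the counts above each bar. The member bar is below the bar of all genes in each class, from 0 of 45 beside 6.96% in the lowest class to 0 of 2 beside 47.9% in the highest.

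ZNF653 had the largest change of the family. Its product, also called Zip67, is a repressor that binds the steroidogenic nuclear receptor SF-1. The gene (ENSG00000161914, chr19:11483427-11505839, GRCh38) had 10.6 and 10.7 scaled TPM in the PDS libraries, against 4.79 and 3.79 in the mock libraries, from 170 and 210 reads against 227 and 142. Both PDS values lay above both mock values, and the deposited TPM showed the same order, 8.53 and 8.46 in PDS cells against 5.90 and 4.82 in mock cells. The log2 fold change was 1.14 ± 0.11 (SE; adjusted p = 0.00684, limma), or 2.21-fold on the log2(scaled TPM + 1) scale. Without mock replicate 1 or mock replicate 2 the adjusted p was 0.0588 and 0.0885, and no gene at all passed in those fits.

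ZNF524, a protein with 4 fingers known to bind telomeric repeats, was the second of the 4 members that were higher in PDS cells. It lies at chr19:55600022-55603138 and had 19.2 and 17.6 scaled TPM in the PDS libraries, against 12.1 and 10.6 in the mock libraries. The groups did not overlap, and the log2 fold change was 0.65 ± 0.09 (SE; adjusted p = 0.0109, limma). In deposited TPM the groups did overlap, with 15.5 and 13.9 in PDS cells and 14.9 and 13.5 in mock cells. Of its exon bases 18.9% are shared with FIZ1 on the opposite strand, which itself had a log2 fold change of 0.06 (adjusted p = 0.55, limma). The strand setting of the counting is not given in the sources used here, so reads from the shared bases cannot be assigned to either gene.

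The other members that were higher changed less. ZNF576, with 4 fingers, had 8.06 and 7.66 scaled TPM in the PDS libraries and 5.94 and 5.23 in the mock libraries, a log2 fold change of 0.43 ± 0.09 (SE; adjusted p = 0.0265, limma). ZNF358, with 9 fingers, had 43.97 and 44.19 scaled TPM in the PDS libraries and 37.7 and 34.1 in the mock libraries, a log2 fold change of 0.29 ± 0.07 (SE; adjusted p = 0.0335, limma, and 0.0614 with quantile normalization). Each kept its libraries apart by group on the scaled values. Both directions depend on the scaling, since the deposited TPM gave log2 fold changes of -0.13 for ZNF576 and -0.34 for ZNF358.

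Among the 3 members that were lower, ZNF146 was the most abundant. Its product, OZF, consists almost wholly of fingers and is overexpressed in some carcinomas. ZNF146 (chr19:36214602-36238771) had 28.4 and 29.0 scaled TPM in the PDS libraries, against 38.2 and 40.1 in the mock libraries, a log2 fold change of -0.43 ± 0.06 (SE; adjusted p = 0.0102, limma). The replicates differed by less than 2 scaled TPM within each group, and the groups were about 10 apart. ZNF565, whose exons share 10.8% of the exon bases of ZNF146 on the opposite strand, had 2.04 and 2.01 scaled TPM in the PDS libraries and 1.56 and 1.31 in the mock libraries.

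ZNF507 and ZNF83 were also lower. ZNF507 (chr19:32345594-32387667), which lies outside the clusters and whose exons overlap no other gene, had 4.30 and 3.87 scaled TPM in the PDS libraries and 5.70 and 6.44 in the mock libraries, a log2 fold change of -0.47 ± 0.10 (SE; adjusted p = 0.0276, limma, and 0.0711 with the exon length trend removed). ZNF83 (chr19:52594060-52690559) had 2.53 and 2.83 scaled TPM in the PDS libraries and 4.01 and 3.99 in the mock libraries, a log2 fold change of -0.44 ± 0.10 (SE; adjusted p = 0.0347, limma). In both genes each PDS value was below each mock value, on the scaled and on the deposited scale, and neither gene passed when any 1 library was left out.

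**Figure D3:**
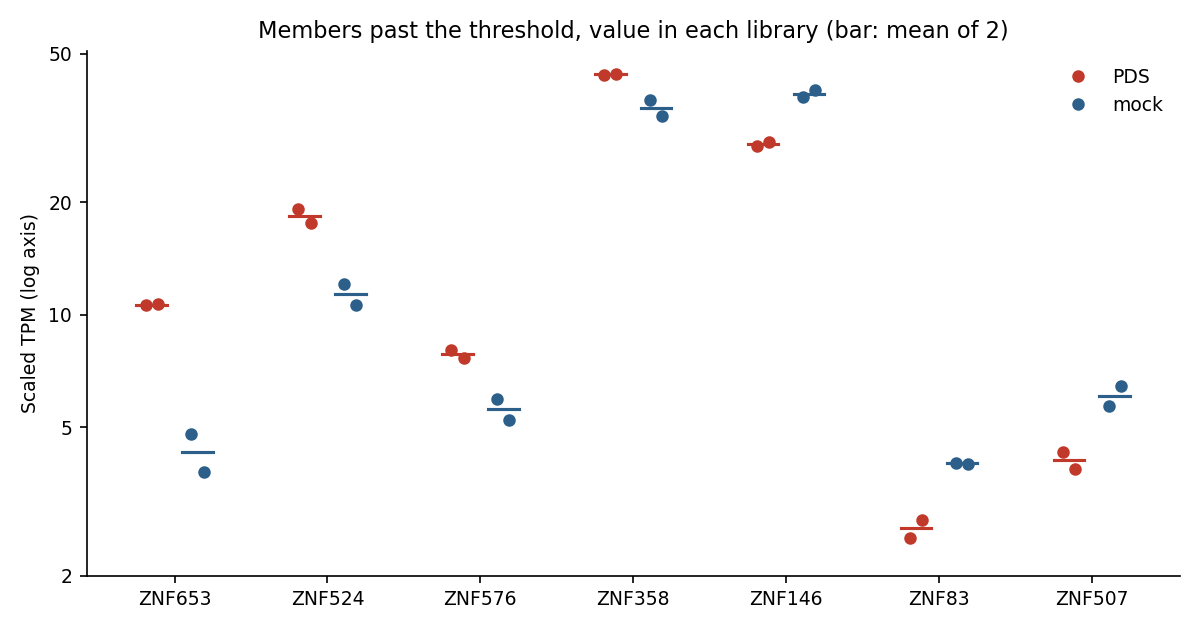
Scaled TPM (log axis) of the 7 members past the threshold in each library, PDS in red and mock in blue, with a bar at the mean of 2. The PDS points lie above the mock points for ZNF653, ZNF524, ZNF576 and ZNF358, and below them for ZNF146, ZNF83 and ZNF507.

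The promoters of the strongest changed members are printed because PDS is a ligand of guanine-rich folds and their G and C runs can be read directly. The table of promoters, from RefSeq on GRCh38.p14, holds 250 bases before and 50 after each gene's start and had an entry for 216 of the 246 members, ZNF524 not among them. Runs of at least 3 G or at least 3 C are in capitals.
ZNF653 promoter, chr19:11505790-11506089, minus strand: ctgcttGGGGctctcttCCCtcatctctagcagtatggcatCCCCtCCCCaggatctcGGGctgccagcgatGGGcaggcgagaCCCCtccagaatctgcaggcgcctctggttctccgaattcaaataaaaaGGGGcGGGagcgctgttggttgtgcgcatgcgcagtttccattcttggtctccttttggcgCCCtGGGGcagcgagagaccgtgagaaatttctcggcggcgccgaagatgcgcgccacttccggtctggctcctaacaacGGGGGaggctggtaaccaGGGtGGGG
ZNF507 promoter, chr19:32345360-32345659, plus strand: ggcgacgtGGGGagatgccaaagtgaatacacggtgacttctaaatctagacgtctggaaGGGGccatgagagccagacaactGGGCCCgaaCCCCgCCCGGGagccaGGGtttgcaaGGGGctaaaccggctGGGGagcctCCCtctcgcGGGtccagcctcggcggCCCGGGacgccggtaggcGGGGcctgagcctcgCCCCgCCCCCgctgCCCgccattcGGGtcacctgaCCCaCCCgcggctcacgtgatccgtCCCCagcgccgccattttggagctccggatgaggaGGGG
ZNF146 promoter, chr19:36214856-36215155, plus strand: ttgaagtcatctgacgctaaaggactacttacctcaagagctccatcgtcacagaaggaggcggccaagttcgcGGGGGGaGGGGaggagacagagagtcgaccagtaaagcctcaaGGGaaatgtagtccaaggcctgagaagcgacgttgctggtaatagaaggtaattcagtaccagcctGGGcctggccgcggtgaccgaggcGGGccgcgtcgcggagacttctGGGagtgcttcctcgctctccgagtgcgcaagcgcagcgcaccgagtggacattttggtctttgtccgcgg
ZNF83 promoter, chr19:52690447-52690746, minus strand: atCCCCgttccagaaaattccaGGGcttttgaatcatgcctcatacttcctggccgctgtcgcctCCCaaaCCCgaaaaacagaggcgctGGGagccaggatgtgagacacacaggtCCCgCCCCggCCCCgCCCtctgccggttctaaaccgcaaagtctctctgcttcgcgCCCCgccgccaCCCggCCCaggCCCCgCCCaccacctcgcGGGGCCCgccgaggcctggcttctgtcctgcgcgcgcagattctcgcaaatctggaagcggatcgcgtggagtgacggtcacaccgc
The motif searched was 4 runs of GGG separated by 1 to 7 bases, on either strand. ZNF83 held it, as C runs on the printed strand. In the windows of ZNF653, ZNF507 and ZNF146 the runs are too few or too far apart to match, and these letters were also not found in the windows of ZNF576 and ZNF358.

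All 7 members past the threshold lacked a KRAB-A-like stretch, scored as at least 12 of 18 positions of the KRAB A box in the translated canonical transcript. The tested members nearest below this limit were ZNF180 and ZNF446, with 11 and 10 positions, and the other tested members without the stretch matched at most 7. Of 32 tested members without the stretch 4 were higher and 3 lower, a share of 21.9%, and of 127 tested members with it none passed. Both shares were below the 29.2% of all tested genes. An unadjusted p under 0.05 was found in 10 of the 127 (7.87%), beside 43.4% of all tested genes. The classes differed in more than the domain: members without the stretch averaged 8.80 TPM in the median and had shorter canonical transcripts (median 3023 bases) of higher GC content (62.1%), while members with it averaged 2.66 TPM, with 4080 bases and 42.3% GC. The count of 0 does not hold in a test on the recovered reads (limma voom, 35.3% of all genes passed), in which 1 KRAB-like member was higher and 13 were lower of 167 tested. The part of level, length and GC content in the difference between the classes was not tested.

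The members called by limma voom on recovered reads numbered 5 higher and 16 lower of 196, or 10.7% in all. Among all genes in that fit 18.1% were higher and 17.3% lower. The higher ones were ZNF653, ZNF524, ZNF576, ZNF358 and ZNF101, and the lower ones included ZNF146 and ZNF507. ZNF83 had no recovered reads, because its identifier matched the annotation without the version. The further lower genes lay in several places along the chromosome. They were ZNF600, ZNF614, ZNF615, ZNF836 and ZNF841 in the cluster ZNF175-ZNF331, and ZNF419, ZNF550 and ZNF587 in ZNF264-ZNF446. ZNF43 and ZNF431 lay in ZNF101-ZNF254, and ZNF333, ZNF473, ZNF780A and ZNF780B outside the clusters. The examples that follow were chosen after their values were seen. ZNF600 had 1.86 and 2.13 scaled TPM in the PDS libraries, against 2.92 and 3.05 in the mock libraries (adjusted p = 0.00874 in limma voom, 0.0598 in limma on scaled TPM). ZNF836, with 24 fingers, had 0.722 and 0.797 scaled TPM in the PDS libraries, against 1.55 and 1.49 in the mock libraries (adjusted p = 0.0117 in limma voom, 0.0764 in limma on scaled TPM).

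The number of fingers varied from 1 in ZNF428 to 31 in ZNF91 among tested members. Of 11 tested members with fewer than 6 fingers, 3 were higher and none lower, with a median of 0.13 on the log2 scale, a share of 27.3% that is close to the 29.2% of all tested genes. Of 102 members with 6 to 14 fingers 1 was higher and 3 were lower (median -0.07), and of 46 members with 15 or more none passed, with a median of -0.12 and 34 below zero. Across the 159 tested members Spearman's rho between the finger count and the log2 fold change was -0.29, a description over genes that share the 4 libraries.

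The fold change was lower in members with longer transcripts, as it was in other coding genes. Spearman's rho with the canonical transcript length was -0.41 across the 159 members, -0.32 across the 127 with a KRAB-A-like stretch, and -0.43 across 11173 tested protein-coding genes. The members were divided by length into 4 classes of 39 or 40. In the class with the shortest transcripts (1156 to 2802 bases) the median log2 fold change was 0.09, beside 0.07 for the coding genes in the same length range. In the next 2 classes it was -0.05 and -0.12, beside -0.04 and -0.11, and in the longest class (over 4956 bases) it was -0.16, beside -0.18. All 4 members that were higher fell in the shortest class, and the 3 that were lower fell in 1 each of the others. The 3′ untranslated length gave a rho of -0.30 in members and -0.23 in coding genes, and the GC content of the transcript 0.26 and 0.20. In contrast, the genomic length of the gene had a rho of -0.06 in members and -0.33 in coding genes.

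**Figure D4:**
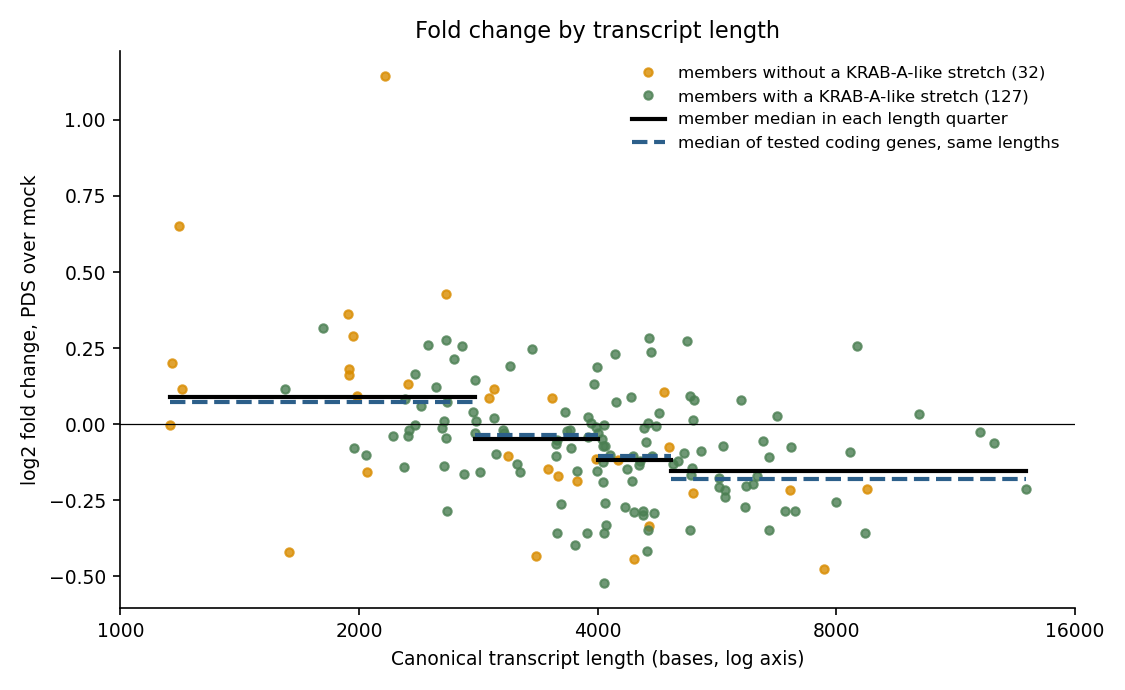
Fold change (log2, PDS over mock) of tested members against the length of the canonical transcript (log axis), orange without and green with a KRAB-A-like stretch. The black bars, member medians in 4 length classes, step down in order at 0.09, -0.05, -0.12 and -0.16, close to the dashed medians of all tested coding genes of the same lengths at 0.07, -0.04, -0.11 and -0.18.

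Members within 500 kb of each other were joined into clusters, and 10 clusters of at least 5 members held 232 of the 246 genes. They are named by their first and last member along the chromosome. The levels differed widely between them. The cluster ZNF628-ZNF835 (chr19:55476617-56671783) had a median of 20.1 TPM over its 10 tested members, against 1.95 TPM for the 15 tested of 37 in the cluster ZNF101-ZNF254 (chr19:19668796-24129968). The cluster ZNF101-ZNF254 held 22 members under 1 TPM, of which 11 were under 0.1 TPM. On the whole chromosome 27 members were under 0.1 TPM.

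The cluster ZNF175-ZNF331 (chr19:51571283-53580269) leaned to the lower side. Of its 27 tested members 21 lay below zero, its median log2 fold change was -0.15, and 16 of the 27 had both PDS values below both mock values (59.3%, beside 35.6% of all tested genes). Relative to all tested genes the cluster median was -0.15 on scaled TPM and -0.17 in limma voom. It was -0.05 on deposited TPM and -0.10 with the exon length trend removed. The median transcript of its tested members was 4431 bases long, and tested coding genes of 4004 to 4955.5 bases had a median of -0.11. The part of length in this lean was not tested. ZNF83 passed the threshold on the lower side and none passed on the higher side. ZNF614, its most abundant member, had 11.6 and 10.3 scaled TPM in the PDS libraries and 12.7 and 15.8 in the mock libraries (log2 fold change -0.35 ± 0.12, SE; adjusted p = 0.0908, limma). ZNF331, an imprinted gene, had 5.31 and 5.80 scaled TPM in the PDS libraries and 6.81 and 6.15 in the mock libraries (adjusted p = 0.178, limma). ZNF350, also called ZBRK1 and a partner of BRCA1, lay on the other side, with 3.31 and 2.88 scaled TPM in the PDS libraries and 2.60 and 2.704 in the mock libraries (adjusted p = 0.3335, limma).

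The cluster ZNF264-ZNF446 near the end of the long arm (chr19:57191500-58481230) held the most members, 43, of which 33 were tested and none passed. Its median log2 fold change was -0.08 and 25 of the 33 lay below zero. ZNF134, the most abundant, had 10.02 and 8.05 scaled TPM in the PDS libraries and 9.04 and 10.04 in the mock libraries. ZNF274, which recruits SETDB1 to the 3′ ends of zinc finger genes, had 7.07 and 7.79 scaled TPM in the PDS libraries and 7.41 and 7.32 in the mock libraries, with a log2 fold change of 0.01 (95% interval -0.20 to 0.22). In both genes the groups overlapped.

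In the cluster ZNF628-ZNF835 6 of 10 tested members were above zero and the median log2 fold change was 0.09. The direction depends on mock replicate 2: the median relative to all tested genes was 0.17 without mock replicate 1 and -0.003 without mock replicate 2. It carries the most abundant members of the family, ZNF581 and ZNF787. ZNF581, with 4 fingers, had 111 and 115 scaled TPM in the PDS libraries and 107 and 101 in the mock libraries (log2 fold change 0.11 ± 0.06, SE; adjusted p = 0.192, limma). ZNF787 had 97.7 and 92.2 scaled TPM in the PDS libraries and 87.9 and 79.3 in the mock libraries (adjusted p = 0.119, limma). Only 1 of its 10 tested members had a KRAB-A-like stretch, and the median transcript there was 1965 bases long with 68.9% GC. ZNF524 was the only member of this cluster past the threshold.

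The cluster ZNF653-ZNF791 (chr19:11483427-12640098), 25 members with 15 tested, had a median log2 fold change of 0.07, with 6 of the 15 below zero. This lean does not hold throughout: relative to all tested genes the median was 0.001 without mock replicate 1, -0.0035 with a filter at 0.5 TPM, -0.05 in limma voom and -0.09 without a filter. ZNF653 is its first gene and passed alone. ZNF823, the most abundant, had 9.37 and 10.04 scaled TPM in the PDS libraries and 9.02 and 9.54 in the mock libraries, with overlap between the groups (log2 fold change 0.06, adjusted p = 0.583, limma). Its neighbour along the chromosome, the cluster ZNF101-ZNF254, had a median of -0.04, with 10 of 15 below zero and none past the threshold. ZNF101 there had 7.76 and 9.27 scaled TPM in the PDS libraries and 6.94 and 6.66 in the mock libraries (log2 fold change 0.28 ± 0.10, SE; adjusted p = 0.0967, limma, and 0.0297 in limma voom). ZNF91, which silences SVA retrotransposons, had 2.76 and 2.97 scaled TPM in the PDS libraries and 2.92 and 3.30 in the mock libraries. ZNF93, which represses L1 elements, was below the filter, with 0.251 and 0.176 scaled TPM in the PDS libraries and 0.219 and 0.308 in the mock libraries.

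The cluster ZNF565-ZNF573 (26 members, 17 tested) had a median log2 fold change of 0.01, and ZNF146 alone passed there. ZNF420, also called APAK and an inhibitor of p53, had 1.82 and 1.89 scaled TPM in the PDS libraries and 1.56 and 2.001 in the mock libraries. ZNF568, whose mouse counterpart represses Igf2, was below the filter with 0.365 and 0.175 scaled TPM in the PDS libraries and 0.298 and 0.211 in the mock libraries. The cluster ZNF575-ZNF180 (23 members, 12 tested) had a median of -0.04 and held ZNF576. Its most abundant gene, ZNF428, had 38.3 and 32.9 scaled TPM in the PDS libraries and 30.9 and 30.5 in the mock libraries (adjusted p = 0.141, limma), and ZNF224, a repressor of the aldolase A gene, had 1.27 and 1.43 scaled TPM in the PDS libraries and 1.68 and 1.55 in the mock libraries (adjusted p = 0.484, limma).

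No member passed in the clusters ZNF554-ZNF77, ZNF414-ZNF846 or ZNF302-ZNF792, which had 5, 9 and 4 tested members. ZNF556 had 10.1 and 9.38 scaled TPM in the PDS libraries and 10.2 and 10.9 in the mock libraries, ZNF317 had 13.3 and 13.9 in the PDS libraries and 13.3 and 14.9 in the mock libraries, and ZNF792 had 9.40 and 10.5 in the PDS libraries and 10.7 and 11.1 in the mock libraries. The medians of these 3 clusters were -0.08, -0.07 and -0.18. The 14 members outside clusters had the lowest median, -0.27 over 12 tested, with 10 below zero. ZNF473, which takes part in the processing of histone pre-mRNA ends, is one of them and had 4.33 and 3.46 scaled TPM in the PDS libraries, against 4.89 and 5.42 in the mock libraries (log2 fold change -0.33 ± 0.12, SE; adjusted p = 0.103, limma, and 0.0191 in limma voom).

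The clusters differed in how far their libraries kept apart by group. The range of the cluster medians was 0.27 on the log2 scale, between ZNF628-ZNF835 and ZNF302-ZNF792, and the standard deviation among the single members of a cluster, which is not the error of its median, was between 0.16 and 0.34. Neighbouring tested members of a cluster, 137 pairs, had a Spearman's rho of 0.12 between their log2 fold changes, a description only. The median deviation from each gene's mean was -0.07 in both PDS libraries, against 0.06 and 0.08 in the mock libraries, for ZNF175-ZNF331 (pooled SD 0.011), and 0.07 and 0.03 in the PDS libraries, against 0.03 and -0.12 in the mock libraries, for ZNF628-ZNF835. In the second of these clusters the mock libraries lay further apart than the group means. With 2 libraries a group, an exact two-sided permutation test of a cluster median cannot go below p = 0.33, so the cluster differences were not tested.

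**Figure D5:**
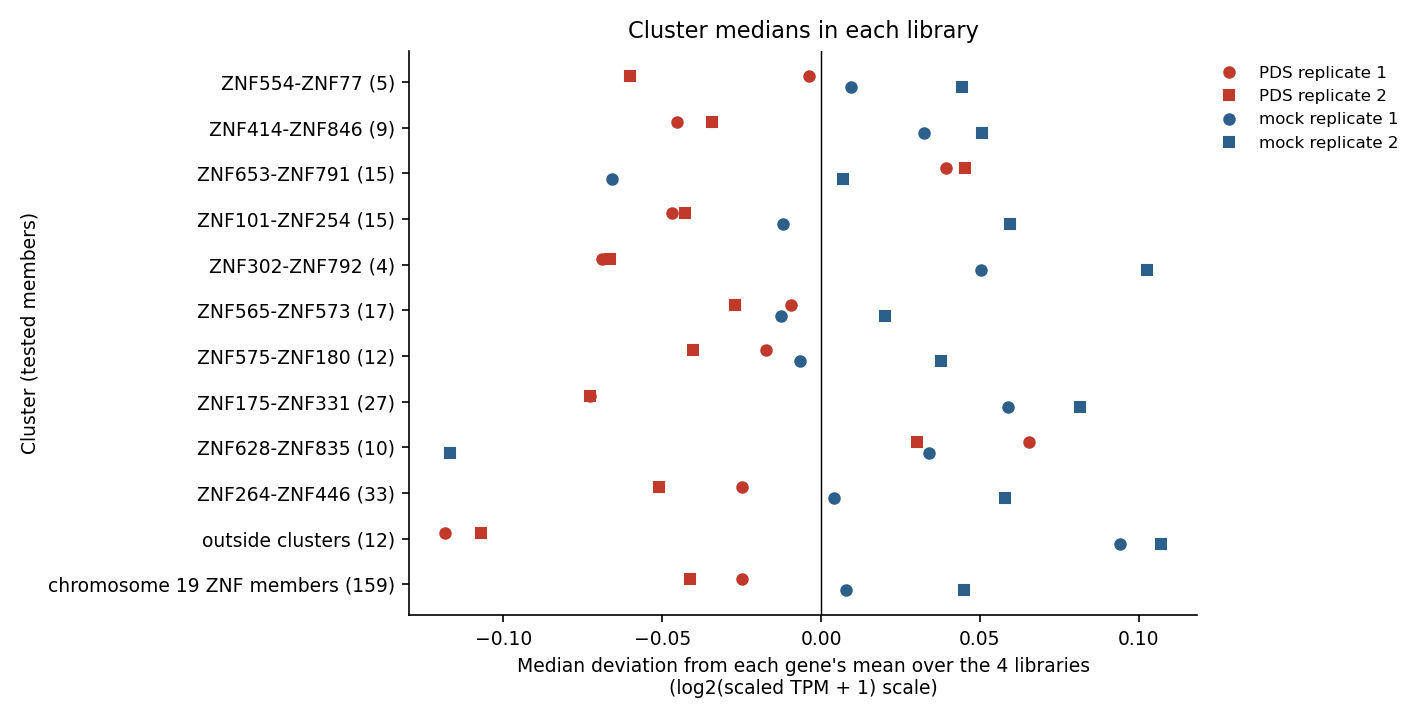
Median deviation of the tested members of each cluster from each gene's mean over the 4 libraries (x axis, log2(scaled TPM + 1) scale), 1 point per library, PDS in red and mock in blue. In ZNF175-ZNF331 the PDS points lie at -0.07 and the mock points at 0.06 and 0.08, while in ZNF628-ZNF835 the mock points are 0.03 and -0.12.

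The family as a whole took 822 and 783 TPM in the PDS libraries, against 1240 and 1269 TPM in the mock libraries, on the deposited scale. After scaling the sums were 1020 and 989 in the PDS libraries and 1007 and 998 in the mock libraries, a ratio of means of 1.002, which is within the spread of the libraries. The 207 KRAB-like members summed to 453 and 440 scaled TPM in the PDS libraries and 462 and 487 in the mock libraries, and the 39 members without the stretch to 567 and 549 in the PDS libraries and 545 and 511 in the mock libraries. PDS over mock was thus 0.94 with the stretch and 1.06 without it on scaled TPM, and neither pair of groups overlapped. Both ratios were below 1 on deposited TPM (0.60 and 0.68) and without the mitochondrial genome (0.80 and 0.90). The 5 most abundant members, all without the stretch, averaged 316 scaled TPM in sum in PDS cells and 293 in mock cells, which is most of the difference in their class.

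The promoters of the clusters carry different short words, shown because they set the clusters apart without any use of expression. The words were picked after scanning all 9-base words of the member promoters. TCCAATCAG, which contains the CCAAT box bound by the factor NF-Y, was in 52 of 216 member promoters (24.1%), beside 0.674% of 15126 other coding promoters and 0.883% of all 27305 promoters in the table, counting both strands. It was in 29 of 29 promoters of ZNF101-ZNF254, 19 of 24 of ZNF653-ZNF791 and 4 of 5 of ZNF554-ZNF77, and in none of the other clusters. TGTCACTCA was in 34 (0.546% of all promoters), 22 in ZNF101-ZNF254 and 12 in ZNF653-ZNF791. In 51 of the 52 promoters the first word stood on the strand of the gene, at a median of -66 with the first transcribed base at 0, and the second word stood at a median of -121. Windows of 100 bases from 4 genes of ZNF101-ZNF254 and then 3 of ZNF653-ZNF791 follow, with both words in capitals. The words do not overlap each other.
ZNF486 promoter, chr19:20167078-20167177, plus strand: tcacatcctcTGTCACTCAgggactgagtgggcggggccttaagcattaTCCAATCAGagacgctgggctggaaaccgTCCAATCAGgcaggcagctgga
ZNF626 promoter, chr19:20661608-20661707, minus strand: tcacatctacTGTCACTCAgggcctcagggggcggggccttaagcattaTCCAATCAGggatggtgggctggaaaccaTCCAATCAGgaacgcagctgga
ZNF431 promoter, chr19:21141903-21142002, plus strand: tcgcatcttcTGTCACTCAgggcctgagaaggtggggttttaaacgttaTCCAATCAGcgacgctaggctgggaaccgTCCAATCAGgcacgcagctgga
ZNF91 promoter, chr19:23395509-23395608, minus strand: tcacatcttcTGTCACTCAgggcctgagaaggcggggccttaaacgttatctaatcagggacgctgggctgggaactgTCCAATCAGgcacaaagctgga
ZNF440 promoter, chr19:11814159-11814258, plus strand: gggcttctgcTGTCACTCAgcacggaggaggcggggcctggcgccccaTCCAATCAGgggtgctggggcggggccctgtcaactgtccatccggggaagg
ZNF700 promoter, chr19:11924995-11925094, plus strand: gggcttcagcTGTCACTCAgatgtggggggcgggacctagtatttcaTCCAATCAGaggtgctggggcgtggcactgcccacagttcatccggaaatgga
ZNF563 promoter, chr19:12333702-12333801, minus strand: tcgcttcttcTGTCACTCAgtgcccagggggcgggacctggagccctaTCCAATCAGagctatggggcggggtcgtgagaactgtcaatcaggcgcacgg
The tested members with TCCAATCAG had a median log2 fold change of -0.04 (30 genes, none past the threshold), and those without it -0.07 (115 genes, 3 higher and 3 lower).

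Promoters of ZNF175-ZNF331 were instead rich in the 4-run G motif. It was found in 18 of its 32 promoters (56.2%) and, next in share, in 6 of 14 of ZNF628-ZNF835 (42.9%), beside 38 of 216 member promoters (17.6%), 30.7% of other coding promoters and 24.0% of all promoters in the table. In all 18 the G runs lay only on the strand opposite to the gene. In 5 of the 6 in ZNF628-ZNF835 and in all 5 in ZNF653-ZNF791 they lay on the strand of the gene. The relation of the strand to the fold change was not tested. The opposite strand alone held them in 27 of the 38 members with the motif and in 43.0% of the 4639 other coding promoters with it. The clusters ZNF565-ZNF573, ZNF575-ZNF180 and ZNF302-ZNF792 had none in 25, 19 and 4 promoters. Windows of 100 bases from 4 genes of ZNF175-ZNF331 are given with the matches in capitals, which read as C runs on the strand of the gene.
ZNF701 promoter, chr19:52570137-52570236, plus strand: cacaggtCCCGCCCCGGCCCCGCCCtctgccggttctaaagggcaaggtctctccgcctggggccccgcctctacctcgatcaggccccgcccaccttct
ZNF611 promoter, chr19:52735095-52735194, minus strand: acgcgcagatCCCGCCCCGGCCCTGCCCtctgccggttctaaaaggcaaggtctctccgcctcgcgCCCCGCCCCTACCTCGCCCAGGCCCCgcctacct
ZNF525 promoter, chr19:53365555-53365654, plus strand: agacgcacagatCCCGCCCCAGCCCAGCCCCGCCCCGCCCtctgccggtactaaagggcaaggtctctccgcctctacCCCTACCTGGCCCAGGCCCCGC
ZNF813 promoter, chr19:53467583-53467682, plus strand: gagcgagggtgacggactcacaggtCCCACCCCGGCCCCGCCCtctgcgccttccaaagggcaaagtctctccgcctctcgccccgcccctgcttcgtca
Within ZNF175-ZNF331 the median log2 fold change was -0.15 for the 13 tested members with the motif and -0.13 for the 9 without it. Over all members it was -0.13 with the motif (29 tested, 1 lower) and -0.06 without it (116 tested, 3 higher and 2 lower), and over coding genes -0.01 with and -0.03 without. In ZNF701, printed here, the log2 fold change was 0.09, and in ZNF525 the estimate was -0.27 (adjusted p = 0.349, limma). The median standard error in this cluster was 0.12, and the spread among genes with similar windows was not tested.

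Several partners of the KRAB proteins were lower in PDS cells. A list of 28 corepressor genes was tested in full, and 11 were lower and none higher in PDS cells, a share of 39.3%. Of all tested genes 13.0% were lower and 29.2% passed in either direction. Between 10 and 50 TPM 38.0% of all genes passed in either direction, and the part of level in the share of the list was not tested. The median log2 fold change of the list was -0.18, and 23 of 28 lay below zero. With the exon length trend removed the median was -0.09, and 7 were lower and 1 was higher. The list was assembled for this family with earlier results of these data known.

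UHRF1 and DNMT1, which together copy DNA methylation at replication, led the list. UHRF1 had 18.3 and 16.1 scaled TPM in the PDS libraries, against 33.3 and 35.8 in the mock libraries (log2 fold change -0.97 ± 0.08, SE; adjusted p = 0.00604, limma). DNMT1 had 14.01 and 13.00 in the PDS libraries, against 25.3 and 25.6 in the mock libraries (log2 fold change -0.87 ± 0.07, SE; adjusted p = 0.00549, limma). In both genes the groups lay further apart than the replicates within them.

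CBX5, which encodes HP1 alpha, had 4.89 and 4.24 scaled TPM in the PDS libraries, against 7.36 and 7.42 in the mock libraries (adjusted p = 0.0142, limma). DNMT3B, a de novo DNA methyltransferase, had 6.06 and 6.11 in the PDS libraries, against 9.26 and 9.76 in the mock libraries (adjusted p = 0.00979, limma). SETDB1, the methyltransferase that TRIM28 brings to KRAB targets, had 8.72 and 9.02 in the PDS libraries, against 11.4 and 11.5 in the mock libraries (log2 fold change -0.33 ± 0.07, SE; adjusted p = 0.0234, limma, and 0.0526 with the exon length trend removed). TRIM28 itself, the direct partner of the KRAB domain, did not pass, with 308 and 318 scaled TPM in the PDS libraries and 354 and 346 in the mock libraries (log2 fold change -0.16 ± 0.05, SE; adjusted p = 0.0741, limma). The remaining lower genes were MTA1, KDM1A, CBX1, DNMT3A, MORC2 and HDAC2, with log2 fold changes between -0.44 and -0.26. HDAC1, CBX3, CHD4 and DAXX had estimates between -0.03 and 0.08 and did not pass.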

How the data were processed

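Per the labels and the study's methods, poly(A) RNA of HepG2 cells was aligned to GRCh38 with STAR 2.7.0 and assigned to genes with featureCounts 2.0.3, and the authors' group comparison used DESeq2 1.36.0. The deposited signal values are TPM per gene and library, made by the authors from counts per exon length. The annotation release, strand setting and TPM formula are not given in the sources used here. Rows at the end without a gene identifier (2, a total and a check value, 50.0% of each column sum) were left out, as were the authors' mean columns. Of 61906 identifiers 59984 matched GENCODE 44 with version and 1819 without it, including 15 members.

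TPM was divided by a median-of-ratios factor over the tested genes (mean TPM of 1 or more), and log2(value + 1) was tested with limma 3.58.1 (R 4.3.3; trend in the variances, two-sided, Benjamini-Hochberg, threshold 0.05), without a replicate block. The unit allows no count test, and fold changes of low genes are understated by the pseudocount. TPM times exon length came out as a whole multiple of 1 read's worth, within 0.05 reads and up to 1000 reads, for 99.89% to 99.90% of values per library, and these reads, 15573166 to 39217670 per library, were used with limma voom (mean of at least 10 reads) as an alternative. The scripts were tested on simulated data.

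Members were joined into clusters at gaps of up to 500 kb (250 and 1000 kb as alternatives). Fingers and the KRAB-A-like stretch were searched in the translated canonical transcript, and promoters came from RefSeq (GRCh38.p14). Text was read in Python with pandas and scipy. Named genes were the members past the threshold with groups apart and at least 30 reads (up to 8 a direction), the 5 most abundant, the most abundant of each cluster, 10 with a known role, and TRIM28, SETDB1 and the 4 corepressors with the largest change. The members and lists were chosen with earlier results of these data known. Other scalings, pseudocounts, filters, a length correction, a block and leaving out each library were tried.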

Additional observations from a re-analysis of the deposited data

How the results depend on the processing

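With 2 libraries a group and few reads per member, the counts of calls depend on the fit, and the directions on the scaling. On TPM as deposited 10917 genes, 121 members and all 28 corepressors passed, and 10 named members turned to the lower side: ZNF101 (-0.29), ZNF274 (-0.56), ZNF350 (-0.32), ZNF358 (-0.34), ZNF420 (-0.38), ZNF428 (-0.43), ZNF576 (-0.13), ZNF581 (-0.53), ZNF787 (-0.46) and ZNF823 (-0.53). With quantile normalization ZNF420 (-0.11) and ZNF581 (-0.028) turned, and with the exon length trend removed ZNF581 (-0.048), ZNF823 (-0.048) and ZNF91 (0.046). Without a filter on low values 1237 genes, 3 members and 4 corepressors passed, and limma voom on recovered reads called 21 members. The fit with a replicate block called 2817 genes (59.6% of them higher, against 55.5% without it), 4 members and 6 corepressors. The replicate numbers share no stated batch, and replicate differences of the 2 groups correlated at -0.03 across genes, so the block stands for no known pairing. Members whose exons overlap no other gene gave 1 call (ZNF507) among 69.

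Leaving out 1 library gave 0 to 2412 calls over all genes, 0 to 3 for members and 0 to 6 for corepressors. Without mock replicate 1 or 2 no gene passed in limma, and 4621 and 4094 genes, 11 and 7 of them members, had an unadjusted p under 0.05. Log2 fold changes that crossed zero ranged from -0.22 to 0.066 for ZNF134, -0.051 to 0.072 for ZNF274, -0.12 to 0.027 for ZNF317 and -0.074 to 0.15 for ZNF420. The range of the cluster medians was 0.23 with quantile normalization, 0.32 with a pseudocount of 0.1, 0.20 without a filter, 0.33 with voom, 0.17 without the length trend, 0.34 with gaps of 250 kb, and 0.24 to 0.37 without 1 library. The ratio of the summed levels, 0.64 on deposited TPM, was 1.002 on scaled TPM and 0.86 without the mitochondrial genome. The cause of these changes was not tested. Each of the 7 members past the threshold kept its direction in all alternatives other than deposited TPM, where ZNF576 and ZNF358 turned. Their calls were less stable: ZNF653 and ZNF146 passed in 11 of 13 alternatives, ZNF524 in 9, ZNF576 in 7, ZNF507 in 6, ZNF358 in 5 (1 of them, deposited TPM, on the lower side) and ZNF83 in 5 of 11.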

Other observations

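A further pair of words from the same scan of the member promoters, also picked after scanning, was spread differently over the clusters. GCTTCCGGG, whose reverse complement holds the GGAA core that ETS factors bind, was in 36 of 216 member promoters (16.7%), beside 1.78% of other coding promoters and 1.44% of all promoters in the table, with 20 in ZNF101-ZNF254 and 14 in ZNF175-ZNF331. AACTACATT was in 23 member promoters (10.6%), beside 0.364% of other coding promoters and 0.465% of all promoters, and 16 of these lay in ZNF264-ZNF446. Tested members with GCTTCCGGG had a median log2 fold change of -0.15 (19 genes), beside -0.06 in the 126 without it. With AACTACATT the median was -0.02 (16 genes), beside -0.07 in the 129 without it. No test was run on these medians.

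In 17 members the canonical transcript shared over 20% of its 100-base words with a transcript of another gene, among chromosome 19 genes and ZNF genes elsewhere. Of these ZNF799, ZNF417 and ZNF324 were tested, and their values are uncertain for this reason.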
